A study of Mus musculus with 12 samples.

Results

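The genes described here were the 10 genes of the MYC, MAX and MXD network that were listed for this work, namely Myc, Mycn, Mycl, Max, Mxd1, Mxd3, Mxd4, Mnt, Mlx and Mga. Each was found by its gene symbol as 1 row of the expression table, so that 10 of 17576 genes were taken, and they were followed in all 12 libraries. The list was chosen by a measured value, since the low level of Myc in the cells with lncRNA5251 knocked down was known when it was drawn up. For that reason the values of these genes in the comparisons of the knockdown with either control are given as a description, without a p-value of a single gene, and nothing is read from the counts of these genes there.

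MYC proteins are transcription factors that bind DNA only as a pair with MAX, at a short palindrome called the E-box, and there they raise the transcription of genes for ribosome production, nucleotide synthesis and cell growth. The MXD proteins and MNT compete for the same partner and the same sites, and they recruit SIN3 and histone deacetylases that lower transcription. MGA pairs with MAX inside a variant Polycomb repressive complex that keeps germ cell and meiotic genes silent, and MLX pairs with MondoA, ChREBP and some MXD proteins in the response to sugar. In the testis MYC and MYCN take part in the self-renewal of spermatogonial stem cells.

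The study asked what the long noncoding RNA lncRNA5251 does in spermatogenesis, with experiments in mouse testes and in cultured cells. The cells were C18-4, an immortalized mouse line made from spermatogonial stem cells, and only these are described here. All 4 groups were stable transfected C18-4 cells of the strain given as IRC mouse, with 3 libraries each. The group C18_3NC, here 3NC, carried the lentiviral vector LV3 with a control shRNA, and C18_5251KD, here KD, carried LV3 with a mixture of 3 shRNAs directed at lncRNA5251. The group C18_5NC, here 5NC, carried the empty vector LV5, and C18_5251OV, here OV, carried LV5 with the full lncRNA5251. Each group is therefore a transfected culture of 1 line, and the insert and the culture change together between groups. The vector changes as well between the LV3 groups and the LV5 groups. The comparison of 5NC with 3NC is one of vectors and control inserts, and the comparison of KD with 5NC differs in the vector as well as in the shRNAs. The labels do not say that the libraries of a group came from separate cultures, so that p-values measure the spread between these libraries, which may be technical.

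Expression was given as RPKM, the reads per kilobase of gene after scaling to the mapped reads of the library, which summed to 533099 to 580920 per library. The read depth is unknown, and the smallest values of 393 genes with 1 transcript gave a rough median of 12700000 reads. Libraries of a group had Spearman correlations of 0.988 to 0.99 across genes and no pair was identical. The cell type label was checked against markers: of 17 spermatogonial marker genes with a row, 4 (Etv5, Id4, Itga6 and Pou3f1) passed the filter on low values, while Ret, Nanos2 and Kit were listed at 0 in every library and Ddx4, Dazl and Zbtb16 did not exceed 0.07 RPKM. Of 9 Sertoli cell markers 4 passed the filter, and of 7 mesenchymal markers 5 did. The mesenchymal markers summed to 317 to 328 RPKM in 3NC, 428 to 517 in KD, 632 to 636 in 5NC and 631 to 665 in OV. Over all libraries the spermatogonial markers summed to 14.45 to 24.51 RPKM. The Sertoli cell markers summed to 60.72 to 71.75 RPKM, of which Wt1 was at 49.83 to 57.46. No row was named lncRNA5251. All 3 shRNAs had an exact match in 1 annotated mouse gene, Purb, and in 0 of the 10 network genes, and Purb was at 33.6 ± 0.624 RPKM in 3NC against 9.32 ± 0.806 in KD, and at 30.7 ± 1.46 RPKM in 5NC against 27.1 ± 5.30 in OV (SD, n = 3 each). In replicates 1 and 2 of OV the median gene with a longest transcript of 8 kb and over was at -0.31 and -0.24 (log2 difference from the mean of 5NC) and the median gene under 2 kb at 0.14 and 0.08, against -0.04 and -0.02 in replicate 3.

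The E-box with the letters CACGTG reads the same on both strands, and it was searched in windows of 300 bases around the RefSeq start sites (assembly GRCm38.p6). A window existed for 9 of the 10 genes, and 4 of these, Max, Mxd4, Mnt and Mlx, held at least 1 E-box, while the windows of Mycn, Mycl, Mxd1, Mxd3 and Mga held none. Of all genes with a window 8.09% held one, and of the genes tested for expression 12% did. The sites of the network genes are shown with their surroundings, because the E-box is the sequence that pairs of MYC or MXD proteins with MAX are known to bind. The E-box is in capitals, the other bases in lower case, and each line runs 5′ to 3′ on the strand of the gene.
Max, chr12:76962234-76962263, minus strand, E-box from position -3 relative to the start: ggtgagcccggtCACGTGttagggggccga
Mxd4, chr5:34187912-34187941, minus strand, from position -219: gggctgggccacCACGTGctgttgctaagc
Mnt, chr11:74830789-74830818, plus strand, from position -123: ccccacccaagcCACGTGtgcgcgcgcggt
Mlx, chr11:101087238-101087267, plus strand, from position -40: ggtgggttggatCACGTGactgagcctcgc

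The same search in the list of MYC-activated genes used further on found an E-box in 16 of 50 tested genes with a window, or 32.0%. From this list the windows of Nop2 and Mybbp1a, whose levels are given below, are shown for comparison. For Rrp12 and Odc1, whose levels are also given below, no E-box was listed. Either none was found or no window existed.
Nop2, chr6:125131811-125131840, plus strand, from position -60: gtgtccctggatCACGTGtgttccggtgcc
Mybbp1a, chr11:72441355-72441376, plus strand, from position 40: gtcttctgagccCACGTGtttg
A match is a description of the letters and does not say that a protein was bound in these cells.

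All 10 network genes passed the filter of at least 1 RPKM in at least 3 libraries, and with them 11435 genes were tested. A difference was counted under the thresholds of the study, an adjusted p of at most 0.001 with a log2 fold change of at least 1 in either direction, and under a lenient rule, an adjusted p of at most 0.05. The study applied its thresholds to another test, DEGseq with the MARS method, whereas here they were applied to limma on log2(RPKM + 1). In KD against 3NC, 1 of the 10 genes passed the stricter thresholds, where 1.57% of all genes did, and this was Myc, by which the list was chosen. Under the lenient rule 7 of 10 passed it, 2 higher and 5 lower, where 55.4% of all genes did, 31.9% higher and 23.5% lower, and without replicate 3 of 3NC 4 passed it. In 8 of 10 the libraries of both groups did not overlap, as in 62.8% of all genes. In KD against 5NC the counts were 1 (Myc, background 3.55%), 5 under the lenient rule with 0 higher and 5 lower (background 65.4%, 34.0% higher and 31.4% lower), and 4 without overlap (background 69.4%). In 5NC against 3NC they were 0 (background 2.61%), 7 with 5 higher and 2 lower (background 56.5%, 31.0% higher and 25.6% lower), and 8 without overlap (background 69.3%). In OV against 5NC they were 0, 1 (Myc, higher) and 2 (Myc and Mnt), where 0.0%, 22.0% (8.07% higher and 13.9% lower) and 36.7% of all genes stood. The balance of higher and lower genes in OV depended on the scaling, with 8.21% higher and 8.31% lower after quantile normalization, and 13.3% higher and 10.9% lower after a correction of each library for transcript length and GC content that was chosen after seeing the data. Under the stricter thresholds limma called 0 genes in that comparison, with 4240 genes at an unadjusted p under 0.05. The counts in the comparisons of KD are a description only, since Myc chose the list, and those under the lenient rule in the other comparisons are no result about the network. The values of the single genes follow. The comparisons of KD and of 5NC with 3NC share the 3NC libraries, those of KD and OV with 5NC share the 5NC libraries, and both comparisons of KD share the KD libraries.

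Myc (Entrez gene 17869), which encodes the main growth-promoting factor of the network, lies on chr15:61985391-61990374 on the plus strand (GRCm38). Its level was 22.3, 23.9 and 23.9 RPKM in the 3 libraries of 3NC and 8.06, 7.50 and 7.33 RPKM in those of KD. In 5NC it was 35.0, 34.4 and 33.1 RPKM, and in OV 44.8, 39.5 and 41.0 RPKM. No library of one group overlapped with those of another, so that the groups stood in the order KD, 3NC, 5NC and OV. The mean in KD was 0.327 of that in 3NC, with a log2 fold change of -1.50 (SE 0.057), the 27th lowest of the 11435 genes. Against 5NC it was 0.223, with a log2 fold change of -2.03 (SE 0.057), the 14th lowest. In these bulk libraries a lower level in every cell and fewer cells that express the gene cannot be told apart. Between the controls Myc was 1.46-fold higher in 5NC than in 3NC (log2 fold change 0.53, SE 0.057, adjusted p = 1.65e-06). The p-values of Myc here and in OV use control libraries that also entered the comparisons of KD, by which the list was chosen. Myc rose in OV, to 41.8 ± 2.74 RPKM (SD, n = 3) from 34.2 ± 1.0 in 5NC, which was 1.22-fold (log2 fold change 0.28, SE 0.057, adjusted p = 0.00506, and 0.00255 to 0.0283 over 13 other settings).

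Mycn, the paralog best known from embryonic and neural tissue, was close to the lower limit of measurement. It was at 0.85, 1.04 and 0.88 RPKM in 3NC and at 0.95, 0.68 and 0.99 in KD, with 2.53, 2.04 and 2.29 in 5NC and 2.87, 2.2 and 2.36 in OV, which at the rough depth is about 23 to 98 reads. The LV3 groups thus lay apart from the LV5 groups. The mean was 2.48-fold higher in 5NC than in 3NC (log2 fold change on log2(RPKM + 1) 0.77, SE 0.097), and the log2 value understates the change of a gene at this level. Mycn passed the filter on low values through the libraries of 5NC and OV, where it was high, so that no p-value is given for this difference. For the same reason its place among the 7 genes counted in 5NC against 3NC, and among the 5 in KD against 5NC, supports nothing. Between OV and 5NC the difference was 0.08 (SE 0.097, 95% interval -0.13 to 0.29, adjusted p = 0.579). In KD against 3NC it was -0.04 (SE 0.097) with libraries that overlapped, and against 5NC -0.81 (SE 0.097). The low level that Myc had in KD relative to 3NC was not seen in Mycn at this depth.

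Mycl, the third MYC paralog, was at 1.89, 2.10 and 1.90 RPKM in 3NC and at 1.33, 0.99 and 1.32 in KD, with 1.36, 1.40 and 1.23 in 5NC and 1.07, 1.30 and 1.0 in OV. Here 3NC was above all other groups, and the other groups overlapped. The log2 fold change was -0.42 (SE 0.087) in KD against 3NC and -0.08 (SE 0.087) against 5NC. Mycl was lower in 5NC than in 3NC (log2 fold change -0.35, SE 0.087, adjusted p = 0.00343), and in OV against 5NC the difference was -0.14 (95% interval -0.32 to 0.05, adjusted p = 0.275).

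**Figure D1:**
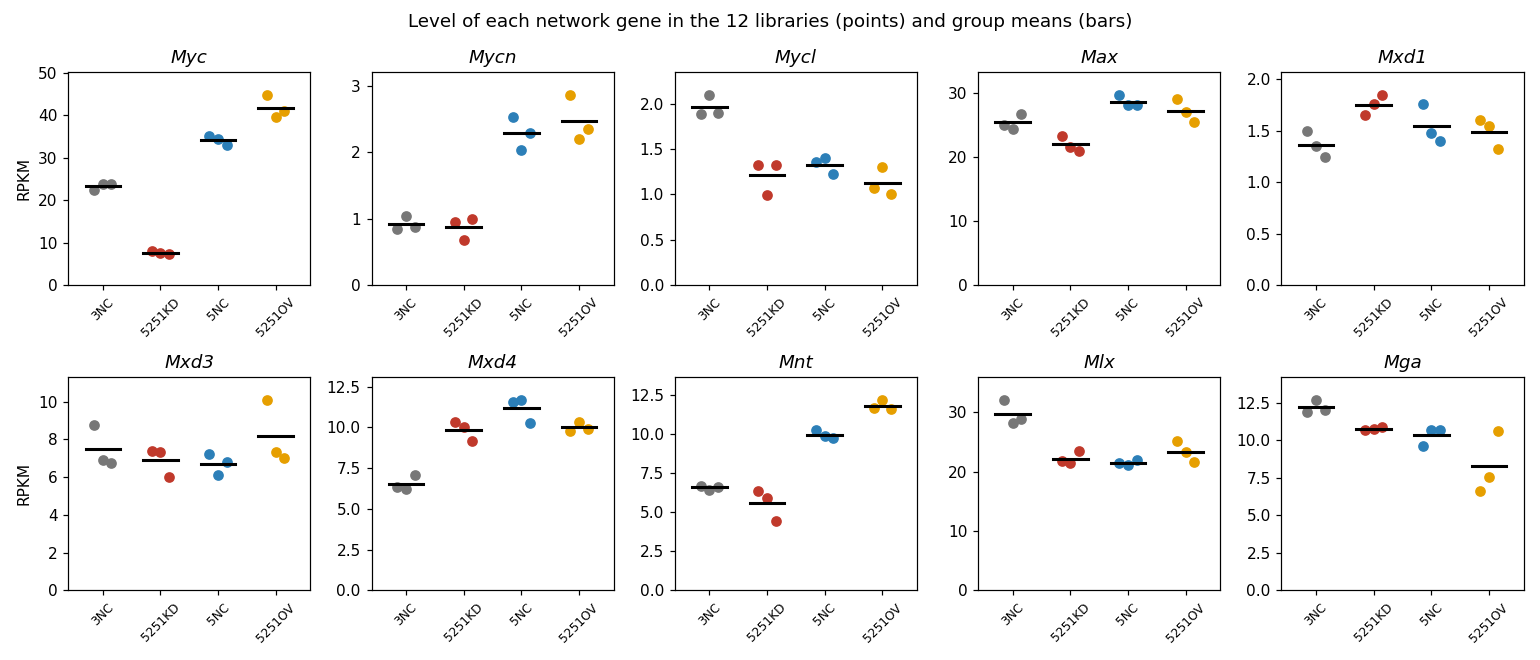
Level of the 10 network genes in RPKM (vertical axes from 0, a scale for each gene), with 1 point per library and a bar at the mean of the 3 libraries of 3NC, KD, 5NC and OV. Myc was at 7.33 to 8.06 RPKM in KD and at 22.3 RPKM or more in every other library, while Max lay between 21 and 29.7 RPKM throughout.

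Max, the obligatory partner of the MYC, MXD, MNT and MGA proteins, was among the 3 most abundant of the 10 in every group. It was at 24.9, 24.4 and 26.7 RPKM in 3NC and at 23.2, 21.5 and 21 in KD, with 29.7, 28.0 and 28.1 in 5NC and 29.0, 27.0 and 25.5 in OV. The libraries of KD lay below those of every other group, by a small amount. The log2 fold change was -0.20 (SE 0.059) in KD against 3NC and -0.37 (SE 0.059) against 5NC. Max was 1.13-fold higher in 5NC than in 3NC (adjusted p = 0.0254, and 0.00641 to 0.119 over the other settings, above 0.05 without replicate 1 or 2 of 3NC or replicate 1 of 5NC), and in OV against 5NC the difference was -0.07 (95% interval -0.20 to 0.05, adjusted p = 0.396). The ratio of Myc to Max in RPKM was 0.923 ± 0.049 for 3NC and 0.348 ± 0.00147 in KD, with 1.20 ± 0.029 in 5NC and 1.54 ± 0.0744 in OV (SD, n = 3 each).

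The repressors among the 10 genes that pair with MAX were Mnt, Mxd1, Mxd3, Mxd4 and Mga. Mnt, the most widely expressed of these antagonists, was at 6.68, 6.43 and 6.63 RPKM in 3NC and at 6.33, 5.91 and 4.46 in KD, with 10.2, 9.84 and 9.71 in 5NC and 11.6, 12.2 and 11.6 in OV. Its groups stood in the same order as those of Myc. The log2 fold change was -0.22 (SE 0.086) in KD against 3NC and -0.75 (SE 0.086) against 5NC. Mnt was 1.51-fold higher in 5NC than in 3NC (log2 fold change 0.53, adjusted p = 0.000104). OV was 1.19-fold above 5NC without overlap (log2 fold change 0.23, 95% interval 0.04 to 0.41), but the adjusted p was 0.0695, with 0.00973 to 0.193 over 13 other settings.

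Mxd4, a repressor linked to differentiating and resting cells, was at 6.34, 6.22 and 7.10 RPKM in 3NC and at 10.4, 10.01 and 9.17 in KD, with 11.6, 11.7 and 10.3 in 5NC and 9.75, 10.3 and 9.91 in OV. 3NC was the group that stood apart, below the other three. The log2 fold change was 0.52 (SE 0.069) in KD against 3NC, and it was -0.17 (SE 0.069) against 5NC, whose libraries overlapped with those of KD. Mxd4 was 1.70-fold higher in 5NC than in 3NC (log2 fold change 0.69, SE 0.069, adjusted p = 7.6e-07), and in OV the difference from 5NC was -0.14 (95% interval -0.29 to 0.00, adjusted p = 0.143). Exons of Mxd4 overlap an antisense gene model over 514 of 8483 exonic bases, and whether the counting used strand is not given in the sources used here.

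Mxd1, a repressor induced when cells differentiate, was at 1.5, 1.35 and 1.24 RPKM in 3NC and 1.65, 1.76 and 1.85 in KD, with 1.76, 1.48 and 1.40 in 5NC and 1.6, 1.55 and 1.32 in OV. The libraries of KD lay above those of 3NC (log2 fold change 0.22, SE 0.083) and overlapped with those of 5NC (0.12, SE 0.083). Mxd3, a repressor expressed in dividing cells, was at 6.76 to 8.76 RPKM in 3NC, 5.99 to 7.41 in KD, 6.12 to 7.20 in 5NC and 7.02 to 10.1 in OV, with overlap in all 4 comparisons. The adjusted p of these genes was 0.812 for Mxd1 and 0.17 for Mxd3 in OV against 5NC, with 95% intervals of -0.21 to 0.15 and -0.02 to 0.49, and 0.292 and 0.372 in 5NC against 3NC. Exons of Mxd3 overlap Prelid1 on the opposite strand over 105 of 2369 bases, and Prelid1 had 209 to 269 RPKM on average in the groups, so that reads of both genes could be mixed where strand was not used.

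Mxi1, the remaining MXD gene, is not one of the 10 genes but was listed with the network. It was at 25.0, 25.2 and 25.7 RPKM in 3NC and 28.9, 29.8 and 29.3 in KD, with 15.9, 15.4 and 16.8 in 5NC and 14.6, 13.7 and 13.8 in OV. Per length it was the most abundant MXD gene of these cells, and its groups stood in the reverse order of those of Myc. Mxi1 was lower in 5NC than in 3NC (log2 fold change -0.63, SE 0.049, adjusted p = 4.92e-08) and was at -0.18 in OV against 5NC (SE 0.049, adjusted p = 0.0215). After the correction of each library for transcript length and GC content that is described for Mga, this difference was -0.06 (adjusted p = 0.41), and the longest transcript of Mxi1 has 5036 bases. It was 1.16-fold higher in KD than in 3NC and 1.83-fold higher than in 5NC.

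**Figure D2:**
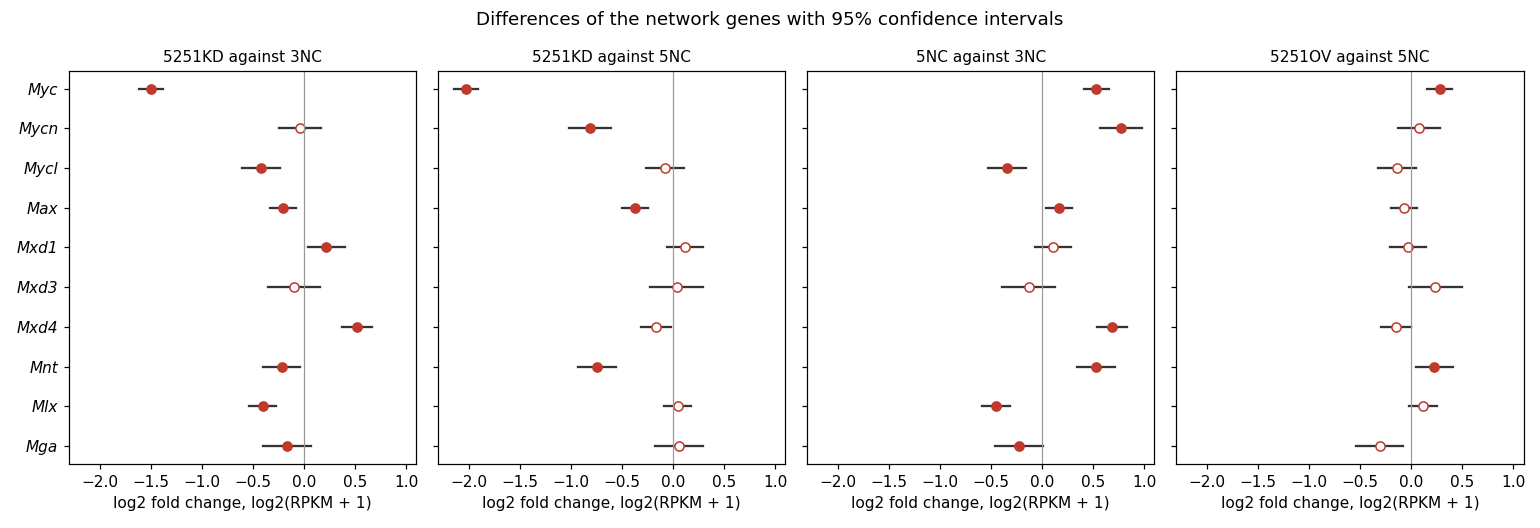
Log2 fold change on log2(RPKM + 1) of the 10 network genes in 4 comparisons (horizontal axis), with points for the estimate and lines for the 95% confidence interval of limma over 3 libraries a group. Filled points mark genes whose libraries did not overlap between the groups. Myc lies farthest from 0 in both comparisons of KD, at -1.50 and -2.03, and no gene lies beyond 0.31 in either direction in OV against 5NC.

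Mlx, the partner of MondoA and ChREBP, was at 32.1, 28.3 and 28.8 RPKM in 3NC and at 21.7, 21.4 and 23.5 in KD, with 21.4, 21 and 22.0 in 5NC and 25.2, 23.2 and 21.7 in OV. As for Mxd4, 3NC was the group that differed from the other three, here above them. Mlx was lower in 5NC than in 3NC (log2 fold change -0.45, SE 0.063, adjusted p = 2.53e-05). In KD it was -0.40 (SE 0.063) against 3NC and 0.05 (SE 0.063) against 5NC, and in OV 0.11 against 5NC (95% interval -0.02 to 0.25, adjusted p = 0.202). Exons of Mlx overlap Psmc3ip on the opposite strand over 385 of 1999 bases, and Psmc3ip was at 38.9 to 43.6 RPKM on average.

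Mga, which encodes the largest protein of the network, was at 11.9, 12.7 and 12 RPKM in 3NC and at 10.7, 10.8 and 10.9 in KD, with 9.60, 10.7 and 10.7 in 5NC and 6.64, 7.59 and 10.6 in OV. The libraries of OV disagreed with each other: replicates 1 and 2 were below all other libraries and replicate 3 was within the range of 5NC. The log2 fold change in OV against 5NC was -0.31 (SE 0.109, adjusted p = 0.0549), and it was -0.48 (adjusted p = 0.000151) without replicate 3. In a fit with a block for the replicate number Mga passed the lenient rule as well. Mga has a longest coding transcript of 13931 bases, and the same replicates 1 and 2 had low values for long genes as a class. After each library was corrected for transcript length and GC content, a setting chosen after seeing the data, the log2 fold change of Mga was -0.05 (adjusted p = 0.597). The gene with the nearest profile to that of Mga, Prrc2c, was also at 23.6 ± 5.95 RPKM in OV against 31.6 ± 1.6 in 5NC (SD, n = 3). In KD Mga differed from 3NC by -0.17 (SE 0.109) and from 5NC by 0.06 (SE 0.109), and in 5NC against 3NC the adjusted p was 0.0951, with 0.00293 to 0.257 over 13 other settings.

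**Figure D3:**
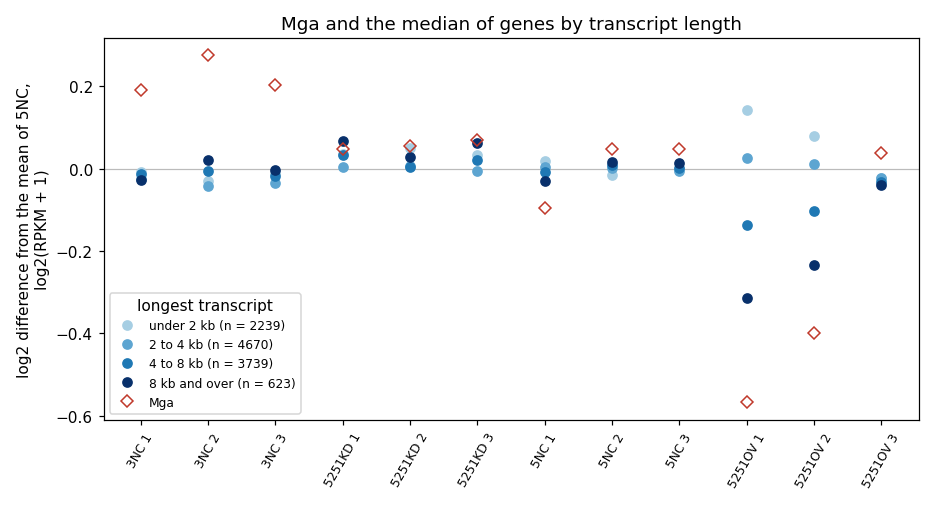
Log2 difference from the mean of the 3 libraries of 5NC (vertical axis, log2(RPKM + 1)) in each of the 12 libraries, as the median of genes in 4 classes of longest transcript (blue points) and for Mga (red diamonds). In replicates 1 and 2 of OV the medians are spread from 0.14 to -0.31 and from 0.08 to -0.24 with length, Mga is at -0.57 and -0.40, and in replicate 3 Mga is at 0.04.

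The order of the levels of the 10 genes differed between the groups. In 3NC the order per length was Mlx, Max, Myc, Mga, Mxd3, Mnt, Mxd4, Mycl, Mxd1 and Mycn, and only Mnt and Mxd4 overlapped as neighbours. In KD Myc was number 5, at 7.63 ± 0.382 RPKM (SD, n = 3), behind Mlx, Max, Mga and Mxd4, and its libraries overlapped with those of the next gene, Mxd3, as did those of Mlx and Max, of Mxd3 and Mnt, and of Mycl and Mycn. In 5NC and OV Myc was first, above Max and Mlx without overlap. In 5NC Mxd4, Mga and Mnt overlapped as neighbours, as did Mxd1 and Mycl, and in OV Mxd4, Mga and Mxd3 overlapped.

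The summed RPKM of Myc, Mycn and Mycl was set beside that of Mxd1, Mxd3, Mxd4 and Mnt, which compares messenger levels and not proteins. The MYC sum was 26.3 ± 1.06 in 3NC and 9.72 ± 0.589 in KD, with 37.8 ± 1.16 in 5NC and 45.4 ± 3.01 in OV (SD, n = 3). The MXD and MNT sum was 22.0 ± 1.21, 24.1 ± 2.29, 29.4 ± 1.30 and 31.4 ± 1.63 in the same order. The ratio of the sums was thus 1.20 ± 0.111 in 3NC and 0.406 ± 0.0414 in KD, with 1.29 ± 0.0198 in 5NC and 1.44 ± 0.0643 in OV. In KD the MYC sum was below the repressor sum in all 3 libraries, and in the other 9 libraries it was above. This rests almost wholly on Myc, which was used to choose the genes. With Mxi1 counted among the repressors the ratio was 0.556 ± 0.0341, 0.182 ± 0.0128, 0.833 ± 0.0187 and 0.997 ± 0.0385, in the order 3NC, KD, 5NC and OV, so that the MYC sum was then the larger in replicates 1 and 3 of OV and in no other library.

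**Figure D4:**
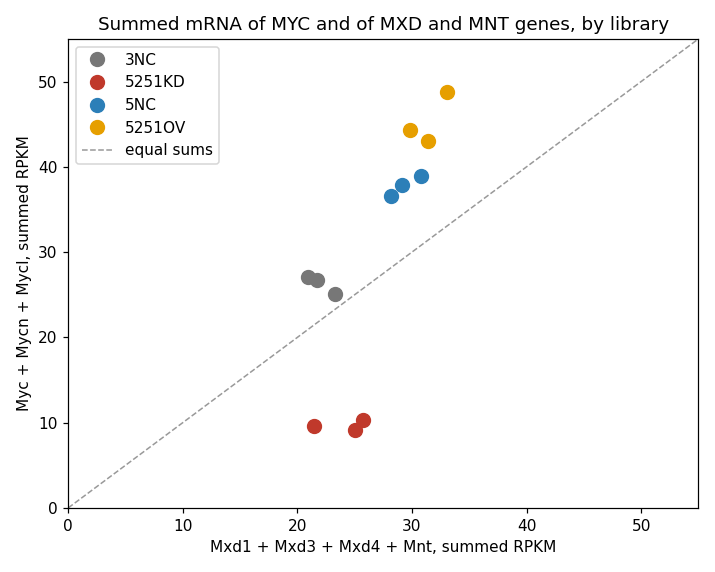
Summed RPKM of Myc, Mycn and Mycl (vertical axis) against summed RPKM of Mxd1, Mxd3, Mxd4 and Mnt (horizontal axis), with 1 point per library and a dashed line where both sums are equal. The 3 libraries of KD lie below the line, at 9.17 to 10.3 RPKM of MYC genes, and the other 9 lie above it, at 25.0 RPKM or more.

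A list of 60 genes known to be activated by MYC was followed, of which 59 passed the filter. This list and those below were drawn up with earlier results of these data known, so that their counts are a description. In KD against 3NC, 51 were lower and 1 higher under the lenient rule, beside 23.5% and 31.9% of all genes, and the median log2 fold change was -0.59 beside 0.04 for all genes. In KD against 5NC, 49 were lower and 5 higher, beside 31.4% and 34.0% of all genes, with a median of -0.58 beside 0.02. In 5NC against 3NC, where Myc was higher, 17 were higher and 19 lower, beside 31.0% and 25.6% of all genes, with a median of 0.00 beside 0.02. In OV against 5NC, 23 were higher and 2 lower, beside 8.07% and 13.9% of all genes, with a median of 0.10 beside -0.03. That count of 23 ranged from 12 to 30 when 1 library was left out, with 12 without replicate 1 of OV and 12 without replicate 2. The shares of all genes in those fits are not given here. After quantile normalization the count was 13, where 8.21% of all genes were higher. After the correction for length and GC content it was 27, with 2 lower, where 13.3% of the genes then tested were higher and 10.9% lower.

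The 3 genes of this list with the largest falls in KD against 3NC were Mybbp1a, Rrp12 and Nop2. Mybbp1a, a nucleolar protein that binds MYB and takes part in rRNA processing, was at 143, 145 and 143 RPKM in 3NC and at 52.1, 53.1 and 46.2 in KD, a log2 fold change of -1.49 (SE 0.050). Rrp12, which takes part in the export of ribosomal subunits, was at 15.6, 16.1 and 15.5 RPKM in 3NC and at 5.44, 5.37 and 4.13 in KD (-1.49, SE 0.074). Nop2, an rRNA methyltransferase, was at 63.1, 60.8 and 63.0 RPKM in 3NC and at 22.4, 24.3 and 20.4 in KD (-1.44, SE 0.057). For all 3 the libraries of KD were below those of 3NC and of 5NC, and the values against 5NC were -1.16, -1.63 and -1.46. The single gene of the list that was higher was Odc1, the ornithine decarboxylase of polyamine synthesis and a classical MYC target, at 151, 144 and 145 RPKM in 3NC and 158, 156 and 167 in KD (0.13, SE 0.040), while against 5NC it was lower (-0.12, SE 0.040). In OV against 5NC Mybbp1a rose 1.22-fold (adjusted p = 0.00248), and Nop2 (0.09, adjusted p = 0.294), Rrp12 (0.07, adjusted p = 0.535) and Odc1 (0.11, adjusted p = 0.0672) did not pass the test.

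**Figure D5:**
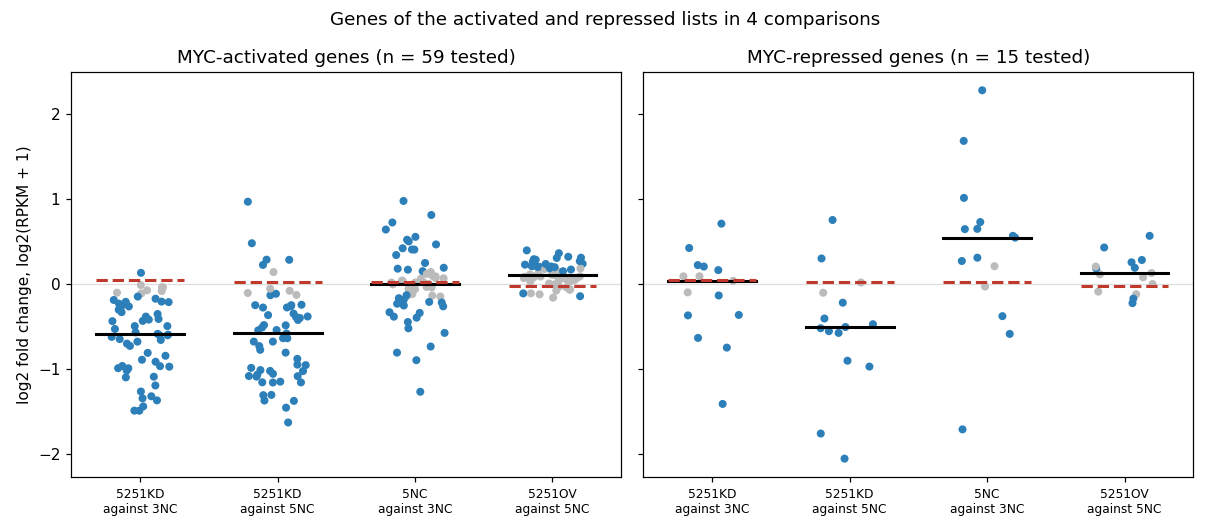
Log2 fold change on log2(RPKM + 1) of each tested gene (points) of the MYC-activated list (left, n = 59) and the MYC-repressed list (right, n = 15) in 4 comparisons. Blue points have an adjusted p of at most 0.05, black bars are the list medians and dashed red bars the medians of all genes. The activated list has medians of -0.59 and -0.58 in the comparisons of KD, while the repressed list has 0.04 and -0.51. Both lists were drawn up with earlier results of these data known.

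A list of 17 genes known to be repressed by MYC, was followed in the same way, and 15 of them passed the filter. In KD against 3NC, 5 were higher and 6 lower, beside 31.9% and 23.5% of all genes, with a median of 0.04. Against 5NC 2 were higher and 11 lower, beside 34.0% and 31.4%, with a median of -0.51. In 5NC against 3NC 10 were higher and 3 lower (median 0.54), beside 31.0% and 25.6%, and in OV against 5NC 6 were higher and 2 lower (median 0.13), beside 8.07% and 13.9%. After the correction for length and GC content 5 were higher and 1 lower in OV, beside 13.3% and 10.9%. Cdkn1a, which encodes the cell cycle inhibitor p21, was at 71.7, 69.7 and 71.7 RPKM in 3NC and 26.2, 26.7 and 25.4 in KD, with 22.3, 19.9 and 20.9 in 5NC and 24.9, 21.9 and 21.7 in OV. It was thus lower in KD than in 3NC (log2 fold change -1.41, SE 0.058) but higher than in 5NC (0.30, SE 0.058). The transcription factor genes Cebpd (-0.75, SE 0.10) and Ddit3 (-0.64, SE 0.057) were also lower in KD than in 3NC, as they were against 5NC (-1.76 and -0.90). The collagen gene Col3a1 (0.71, SE 0.046), the DNA damage response gene Gadd45a (0.42, SE 0.054) and the growth arrest gene Gas1 (0.22, SE 0.077) were higher than in 3NC and lower than in 5NC (-0.97, -0.22 and -2.06). Col3a1 is also one of the mesenchymal markers, whose summed level was higher in KD than in 3NC and lower than in both LV5 groups. The part of that shift in the list was not tested.

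The cofactors through which MYC and MXD proteins act on chromatin, 16 genes that all passed the filter, had 2 higher and 7 lower in KD against 3NC (median -0.10), beside 31.9% and 23.5% of all genes, and 2 higher and 8 lower against 5NC (median -0.12), beside 34.0% and 31.4%. The largest differences against 3NC were those of Ruvbl2 (-0.52, SE 0.057) and Ruvbl1 (-0.45, SE 0.056), the paired ATPases of chromatin remodelling complexes, and of Ep400 (-0.34, SE 0.060), the remodelling ATPase that binds them. The histone deacetylase gene Hdac2 (0.25, SE 0.041) and the repressor scaffold gene Sin3b (0.17, SE 0.057) were the 2 genes that were higher than in 3NC, and against 5NC they were at -0.07 and 0.21. Their paralogs Hdac1 and Sin3a, named after their values were seen, were at -0.33 (SE 0.042) and -0.11 (SE 0.061) against 3NC and at -0.18 and 0.19 against 5NC. In OV against 5NC 1 was higher and 1 lower, beside 8.07% and 13.9% of all genes, and in 5NC against 3NC 3 were higher and 3 lower, beside 31.0% and 25.6%, with medians of 0.01 in both. The corrected counts in OV were 3 higher and 1 lower, beside 13.3% and 10.9%.

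Of 14 genes that act on the stability or phosphorylation of the MYC protein, 4 were higher and 5 lower in KD against 3NC, beside 31.9% and 23.5% of all genes, with a median of 0.01. Against 5NC 3 were higher and 8 lower, beside 34.0% and 31.4%, with a median of -0.22. Usp36, a nucleolar deubiquitinase that stabilizes MYC, was at 25.6, 26.9 and 27.2 RPKM in 3NC and at 16.0, 15.3 and 14.3 in KD (-0.77, SE 0.053). The ubiquitin ligase gene Fbxo28 (-0.51, SE 0.060) and Set, a phosphatase inhibitor (-0.39, SE 0.038), were also lower. Against 5NC the values of Usp36, Fbxo28 and Set were -0.82, -0.035 and -0.78. Skp2, a ubiquitin ligase that binds MYC, was at 19.4, 19.0 and 18.5 RPKM in 3NC and at 31.8, 31.0 and 35.3 in KD (0.76, SE 0.067). The kinase gene Pim1 (0.40, SE 0.074) and the deubiquitinase gene Usp28 (0.31, SE 0.066) were higher as well. Against 5NC Skp2 (0.55) and Usp28 (0.60) were also higher in KD, while Pim1 was lower (-0.32). In 5NC against 3NC 7 were higher and 3 lower (median 0.16), beside 31.0% and 25.6% of all genes, and in OV against 5NC 1 was higher and 2 lower (median -0.02), beside 8.07% and 13.9%. With the correction 2 were higher and 0 lower in OV, beside 13.3% and 10.9%.

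The partners of MGA and MAX in the variant Polycomb complex, 10 genes that all passed the filter, had 4 higher and 1 lower in KD against 3NC (median 0.10), beside 31.9% and 23.5% of all genes, and 2 higher and 3 lower against 5NC (median -0.11), beside 34.0% and 31.4%. Tfdp2, a partner of E2F factors, was at 12, 12.6 and 11.8 RPKM in 3NC and at 20.1, 20.4 and 21.1 in KD (0.71, SE 0.058). The ubiquitin ligase gene Rnf2 (0.39, SE 0.081) and Yaf2 (0.33, SE 0.051) were higher, and Tfdp1 (-0.33, SE 0.044), the paralog of Tfdp2, was lower. Against 5NC these 4 genes were at 0.13 (Tfdp2), 0.25 (Rnf2), 0.10 (Yaf2) and -0.29 (Tfdp1), of which Tfdp2 and Yaf2 did not pass the lenient rule. In 5NC against 3NC 5 were higher and 0 lower (median 0.15), beside 31.0% and 25.6% of all genes, and in OV against 5NC 0 were higher and 1 lower (median -0.08), beside 8.07% and 13.9%, or 1 higher and 1 lower with the correction, beside 13.3% and 10.9%. Of 16 germ cell genes that MGA and MAX are known to hold silent, 3 passed the filter, and Ddx4, Dazl and Stra8 did not exceed 0.07 RPKM in any library. In KD against 3NC 2 of the 3 tested were higher and 0 lower, beside the same shares of all genes, namely the cohesin gene Stag3 (60.7 to 87.2 RPKM over both groups, log2 fold change 0.40, SE 0.051) and Tdrkh, a protein of the piRNA pathway (0.25, SE 0.068). Against 5NC, with the same KD libraries, they were at 0.46 and 0.36, and neither passed the lenient rule in 5NC against 3NC or in OV against 5NC. The third, the synaptonemal complex gene Sycp1, was at 0.37 to 1.33 RPKM and passed the filter through the libraries of 3NC, where it was highest, so that no test of it is given.

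The transcription factor partners of MLX were Mlxip, which encodes MondoA, at 4.87 to 6.78 RPKM over the 12 libraries, and Mlxipl, which encodes ChREBP, at 0.21 RPKM or less and not tested. Mlxip differed by -0.11 (SE 0.074) in KD against 3NC and by -0.19 (SE 0.074, adjusted p = 0.0789) in OV against 5NC. Of 8 genes driven by MLX with either partner, 7 passed the filter. Of these 3 were higher and 2 lower in KD against 3NC, beside 31.9% and 23.5% of all genes, and against 5NC 5 and 1, beside 34.0% and 31.4%. Between the controls 3 were higher and 4 lower in 5NC, beside 31.0% and 25.6%, and in OV against 5NC 1 and 3, beside 8.07% and 13.9%, and also 1 and 3 with the correction, beside 13.3% and 10.9%. The medians in that order were 0.02, 0.47, -0.37 and -0.14. Arrdc4 and Txnip encode arrestin-like proteins that respond to glucose through MondoA. Txnip was at 36.3, 37.5 and 33.7 RPKM in 3NC and 67.1, 64.8 and 69.2 in KD, with 57.7, 59.7 and 57.8 in 5NC and 44.2, 44.8 and 45.2 in OV. Arrdc4 was at 6.16, 6.37 and 7.07 RPKM in 3NC and 12.9, 13.6 and 13.0 in KD, with 16.3, 13.6 and 13.7 in 5NC and 9.23, 10.3 and 9.20 in OV. Both fell in OV against 5NC, also after the correction for length and GC content (adjusted p = 2.88e-05 and 0.000254), Txnip by 0.38 (SE 0.047, adjusted p = 0.00023) and Arrdc4 by 0.55 (SE 0.075, adjusted p = 0.000416) on the log2 scale. Of the lipid synthesis genes Fasn (-0.25, SE 0.060) and Acly (-0.14, SE 0.046) were lower and Acaca (0.18, SE 0.063) was higher in KD than in 3NC. Against 5NC all 3 were higher in KD, at 0.47 (Fasn), 0.48 (Acly) and 0.55 (Acaca). Scd1, a fatty acid desaturase gene named after its values were seen, was at 0.02 (SE 0.055) in KD against 3NC and 1.72 (SE 0.055) against 5NC, and it was lower in 5NC than in 3NC (-1.70, SE 0.055).

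The genes whose profile over the 12 libraries was most like that of Myc were found by the root mean square difference of log2(RPKM + 1) after each gene was centred on its own mean, where Myc itself varied by 0.892. They were Trmt61a (0.137), a tRNA methyltransferase subunit, the metallothionein Mt2 (0.143), Mid1ip1 (0.187), the semaphorin Sema3c (0.241) and the growth factor Fgf5 (0.258). Trmt61a was at 4.95 ± 0.241 RPKM in 3NC and 1.42 ± 0.255 in KD, with 7.17 ± 0.605 in 5NC and 8.71 ± 0.310 in OV, and Mt2 was at 49.0 ± 2.80, 20.1 ± 1.74, 70.5 ± 3.84 and 89.4 ± 8.54 (SD, n = 3). Both stood in the order of Myc, whereas Sema3c, at 43.3 ± 0.416 in 5NC and 36.7 ± 5.19 in OV, did not. For the other genes the nearest profiles were those of Zhx2 to Mycn (0.08), Utp6 to Mycl (0.071), Ppp1r9b to Max (0.056), Fuca1 to Mxd1 (0.049), 1810043G02Rik to Mxd3 (0.098), Scrn1 to Mxd4 (0.069), Mfsd5 to Mnt (0.075), Dtwd1 to Mlx (0.07) and Prrc2c to Mga (0.059). These distances are over 12 libraries in 4 groups and describe likeness of levels.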

How the data were processed

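RNA of C18-4 cells was sequenced in 12 libraries, 4 groups of 3; the labels call it total RNA, and the methods of the study describe enrichment with oligo(dT) beads. The authors aligned the reads with SOAPaligner and deposited RPKM values of 17576 genes; the genome build and gene set are not given in the sources used here. RPKM removes read counts, so counting error is not seen, and a bias of a library by transcript length stays in it. The deposited RPKM was tested as log2(RPKM + 1) with limma 3.58.1 in R 4.3.3 (eBayes with a trend, Benjamini-Hochberg adjustment) for genes that reached 1 RPKM in 3 or more libraries, with all 12 libraries in 1 fit and no block. As a check of the code, 11300 genes were simulated for KD against 3NC with normal spread, and 200 well-expressed genes were changed 3-fold. Under the stricter thresholds 200 of these 200 and 0 others were called. Such changes lie above the fold limit by design, so that the result says nothing about smaller differences. An exact permutation test of 3 against 3 libraries cannot go below 0.1. The members and lists were chosen with earlier results of these data known. From each list at most 3 genes with the largest rise and 3 with the largest fall in KD against 3NC were named, together with the 5 nearest profiles to Myc and the nearest to each other member. Gene models were from GENCODE (GRCm38) and promoter windows from RefSeq. Figures used matplotlib 3.10.9. The alternatives were other pseudocounts (0.1 and 0.5), no filter, quantile normalization, a fit of 6 libraries, a replicate block, each library left out and a length and GC correction.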

Additional observations from a re-analysis of the deposited data

How the results depend on the processing

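The 10 network genes in 4 comparisons gave 520 log2 fold changes under other settings: 474 kept their direction and their side of an adjusted p of 0.05, 24 no longer passed it, 10 newly passed it and 12 changed sign at an adjusted p above 0.05. The sign changed for Mxd1 in OV against 5NC with quantile normalization (0.049) and the length and GC correction (0.021), and for Mga in KD against 5NC with that correction (-0.013). Leaving out 1 library also changed signs, with ranges of -0.073 to 0.028 for Mxd1 and -0.001 to 0.136 for Mycn in OV against 5NC, -0.086 to 0.036 for Mycn and -0.155 to 0.01 for Mxd3 in KD against 3NC, and -0.02 to 0.122 for Mxd3 in KD against 5NC. In OV against 5NC the count of 1 network gene (Myc) became 2 with quantile normalization, with the 6 libraries compared and with the length and GC correction, chosen after seeing the data (Myc and Mnt), and 2 with the replicate block (Myc and Mga). It ranged from 1 to 2 when 1 library was left out, with 2 (Myc and Mga) without replicate 3 of OV. In 5NC against 3NC the count of 0 under the thresholds of the study became 1 (Mycn) at a pseudocount of 0.1. In KD against 5NC the count of 1 became 2 (Myc and Mycn) at pseudocounts of 0.1 and 0.5, which shrink low genes less. Mycn passed the filter through 5NC and OV, where it was high, so that these calls of Mycn support nothing. In KD against 3NC, leaving out 1 library gave 4 to 7 network genes under the lenient rule, with 4 without replicate 3 of 3NC, 0 to 1 higher genes of the MYC-activated list, with 0 without replicate 2 of 3NC, and 3 to 5 of the MYC-repressed list, with 3 without replicate 2 of 3NC or replicate 1 of KD. The cause of these changes was not tested. Same-numbered libraries of the groups compared had correlated deviations of -0.178 to 0.176 and share only a number, and the replicate block moved no other count of network genes by over 1.5 times. The length and GC correction could be made for 11271 of 11435 tested genes. Read counts per gene were not used, and at the rough depth Mycn, Mycl and Mxd1 had about 23 to 110 reads per library, so that their counting error is not known.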
